A study of Homo sapiens with 6 samples.

Results

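The acute phase protein genes are described here as 10 hepatocyte genes, namely SAA1, SAA2, SAA4, CRP, HP, ORM1, ORM2, LBP, HPX and CP. They were taken by gene name from a table of 26184 genes and loci, in which every name occurred. RNA-seq was performed on the lines Huh7 P and Huh7 LR, with 3 samples each. Huh7 P is the parental human hepatocellular carcinoma line, labelled as wild type (WT) and without treatment. Huh7 LR is the lenvatinib-resistant derivative of the same WT line, which was kept under lenvatinib, an inhibitor of several receptor tyrosine kinases, for 10 months while the concentration went from 1 to 20 μM, and was passaged at 20 μM afterwards. It is a single resistant line, and whether lenvatinib was in the medium at harvest is not stated. The study calls the samples of a line independent, and p-values measure the spread between these samples.

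The acute phase response is the change in the plasma proteins made by the liver during inflammation or injury. IL6 and related cytokines act through the shared receptor subunit IL6ST and the transcription factor STAT3, while IL1 and TNF act through NF-kB, and C/EBP factors take part in both branches. Positive acute phase proteins rise in plasma and negative ones, such as albumin, fall. Hepatoma lines keep part of this programme in culture and are a common model of it.

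The 10 genes lie on 6 chromosomes (GRCh38, GENCODE release 29). The SAA genes form a cluster on chromosome 11, with SAA4 (ENSG00000148965) at chr11:18231349-18236893 and SAA2 (ENSG00000134339) at chr11:18239223-18248643 on the minus strand, and SAA1 (ENSG00000173432) at chr11:18266174-18269977 on the plus strand. HPX (ENSG00000110169) lies elsewhere on that chromosome, at chr11:6431049-6442617 on the minus strand. ORM1 (ENSG00000229314) at chr9:114323056-114326475 and ORM2 (ENSG00000228278) at chr9:114329869-114333252 are neighbouring copies on the plus strand. HP (ENSG00000257017) is at chr16:72054592-72061055 on the plus strand, beside its copy HPR. CP (ENSG00000047457) is at chr3:149162410-149222055 on the minus strand, CRP (ENSG00000132693) at chr1:159712289-159714589 on the minus strand, and LBP (ENSG00000129988) at chr20:38346356-38377023 on the plus strand.

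RefSeq promoter sequences (GRCh38.p14) were at hand for 4 of the 10 genes, SAA4, HPX, CRP and ORM1. All 4 are shown. SAA4 and HPX had the largest rises of the members tested, CRP is the usual clinical marker of the response, and ORM1 is among the members that did not pass the test. Each is the 250 bases before the RefSeq start site, written 5′ to 3′ on the strand of the gene, at chr11:18236803-18237052 (minus strand) for SAA4, chr11:6440988-6441237 (minus strand) for HPX, chr1:159714590-159714839 (minus strand) for CRP and chr9:114322848-114323097 (plus strand) for ORM1. The RefSeq start lies inside the GENCODE gene for SAA4, HPX and ORM1. Capitals mark matches, on either strand, to the letters of a C/EBP motif (TTNNGNAA), a STAT motif (TTCNNNGAA), a STAT3 core (CTGGGAA) or an NF-kB motif (GGGANTTTC).
SAA4: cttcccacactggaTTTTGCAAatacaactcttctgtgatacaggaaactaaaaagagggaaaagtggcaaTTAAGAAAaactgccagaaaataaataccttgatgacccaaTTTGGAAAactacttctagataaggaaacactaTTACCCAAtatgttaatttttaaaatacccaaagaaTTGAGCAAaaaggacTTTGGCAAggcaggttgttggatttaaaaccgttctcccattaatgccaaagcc
HPX: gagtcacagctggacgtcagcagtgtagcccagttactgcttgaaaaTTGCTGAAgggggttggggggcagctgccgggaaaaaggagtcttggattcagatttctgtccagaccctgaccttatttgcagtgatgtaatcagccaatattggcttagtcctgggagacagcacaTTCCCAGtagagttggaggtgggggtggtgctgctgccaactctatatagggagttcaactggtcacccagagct
CRP: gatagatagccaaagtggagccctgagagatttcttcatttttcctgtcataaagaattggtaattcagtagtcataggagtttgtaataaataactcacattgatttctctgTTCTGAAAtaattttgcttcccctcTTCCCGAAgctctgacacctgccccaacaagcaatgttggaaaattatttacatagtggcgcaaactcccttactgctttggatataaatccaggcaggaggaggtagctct
ORM1: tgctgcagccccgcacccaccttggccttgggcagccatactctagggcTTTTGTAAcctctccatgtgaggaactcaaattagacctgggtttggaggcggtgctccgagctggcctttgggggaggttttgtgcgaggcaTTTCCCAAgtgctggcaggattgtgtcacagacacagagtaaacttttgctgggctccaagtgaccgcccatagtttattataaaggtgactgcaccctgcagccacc

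The SAA4 window held 6 matches to the C/EBP letters, beginning at positions -236, -179, -138, -105, -69 and -54 before the start site. The CRP and ORM1 windows held 2 such matches each, and the HPX window held 1. Of 35116 RefSeq promoter windows of this length, 33.2% held at least 1 match and 0.0683% held 6 or more. The cut of 6 was taken from SAA4 itself, and the windows were not matched for base composition. The HPX window also held the STAT3 core, at -75, which 9.15% of all windows contained. The STAT and NF-kB letters, found in 6.57% and 1.12% of all windows, were in none of the 4. Only the letters given above were searched, so STAT sites of another spacing would be missed or marked under another motif. No match overlapped another in these windows. A match of letters does not show that a factor binds there.

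Per transcript length, HP was the most abundant member in both lines. HP encodes haptoglobin, which captures free haemoglobin in plasma, and its level was 24.5 ± 4.46 FPKM in Huh7 P and 38.9 ± 0.757 FPKM in Huh7 LR (SD, n = 3). In Huh7 P the order below it was ORM1 at 11.6 ± 1.198 FPKM, HPX at 8.42 ± 0.593 FPKM, then ORM2 at 5.95 ± 0.531 FPKM and CP at 5.93 ± 0.672 FPKM, whose ranges overlapped. The other 5 genes lay far lower, from SAA4 at 0.286 ± 0.0575 FPKM and SAA1 at 0.234 ± 0.154 FPKM down to LBP at 0.0977 ± 0.0313 FPKM, SAA2 at 0.0761 ± 0.132 FPKM and CRP at 0.0119 ± 0.0142 FPKM, and each of these overlapped the next in its range. In Huh7 LR the order was HP, HPX at 24.1 ± 2.69 FPKM, ORM1 at 10.6 ± 1.05 FPKM, SAA4 at 5.75 ± 3.06 FPKM, ORM2 at 5.06 ± 0.218 FPKM and CP at 2.81 ± 1.05 FPKM. Among neighbours in this order of 6, the ranges of SAA4 and ORM2 overlapped, and that of SAA4 also reached CP. SAA4 thus stood among the abundant members in Huh7 LR, while SAA1 (0.241 ± 0.130 FPKM), LBP (0.146 ± 0.0889 FPKM), SAA2 (0.129 ± 0.0489 FPKM) and CRP (0.0744 ± 0.0349 FPKM) stayed at the foot of the order with overlapping ranges.

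**Figure D1:**
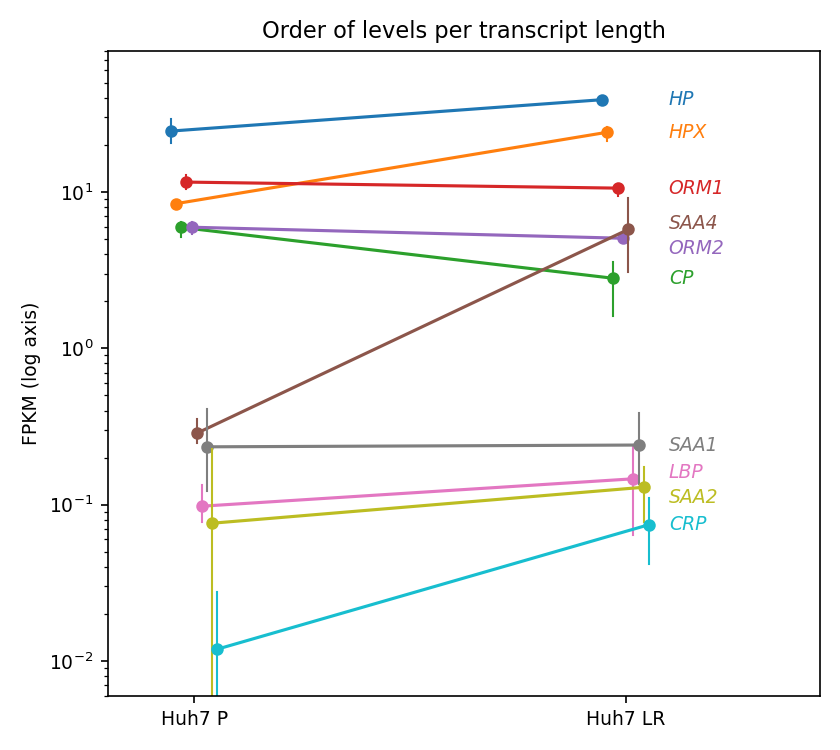
FPKM (log axis) of the 10 acute phase protein genes in Huh7 P and Huh7 LR. Points are means of 3 libraries joined by a line for each gene, and vertical bars run from the lowest to the highest library (bars that reach the foot of the axis include a library at 0); SAA4 went from 0.286 to 5.75 FPKM and CP from 5.93 to 2.81 FPKM.

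Counts were compared between libraries as CPM, that is, scaled to the library size. Together the 10 genes took 84.04, 95.01 and 101.6 CPM of the deposited counts in Huh7 P and 128.7, 127.3 and 137.0 CPM in Huh7 LR, so the lines did not overlap. For single genes the library size was further adjusted by edgeR's TMM method. Totals were 62738937 to 71427573 counts per library, at which 3 counts, the limit that a count of 0 allows, equal 0.0418 to 0.0486 CPM. This limit covers counting error only. Of the 10 genes, 8 had enough counts to be tested with edgeR's quasi-likelihood test, and CRP and SAA2 did not. At an adjusted p under 0.05, 3 members were higher in Huh7 LR (SAA4, HPX and HP), 1 was lower (CP) and 4 did not pass (ORM1, ORM2, LBP and SAA1). Among all 17531 features tested, 23.3% were higher and 22.4% were lower by the same rule. The median log2 fold change was 0.24 over the 8 members and 0.0046 over all features. At an adjusted p under 0.001 and more than 2-fold, after the levels of p and fold that the study used, 2 members were higher (SAA4 and HPX) and 0 were lower, against 4.43% and 1.78% of all features. With edgeR 1 member (CP) was lower at an unadjusted p under 0.05, and DESeq2 also gave 0 at the stricter level. CP did pass the stricter level with no filter, with the replicate block and without Huh7 LR 1.

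**Figure D2:**
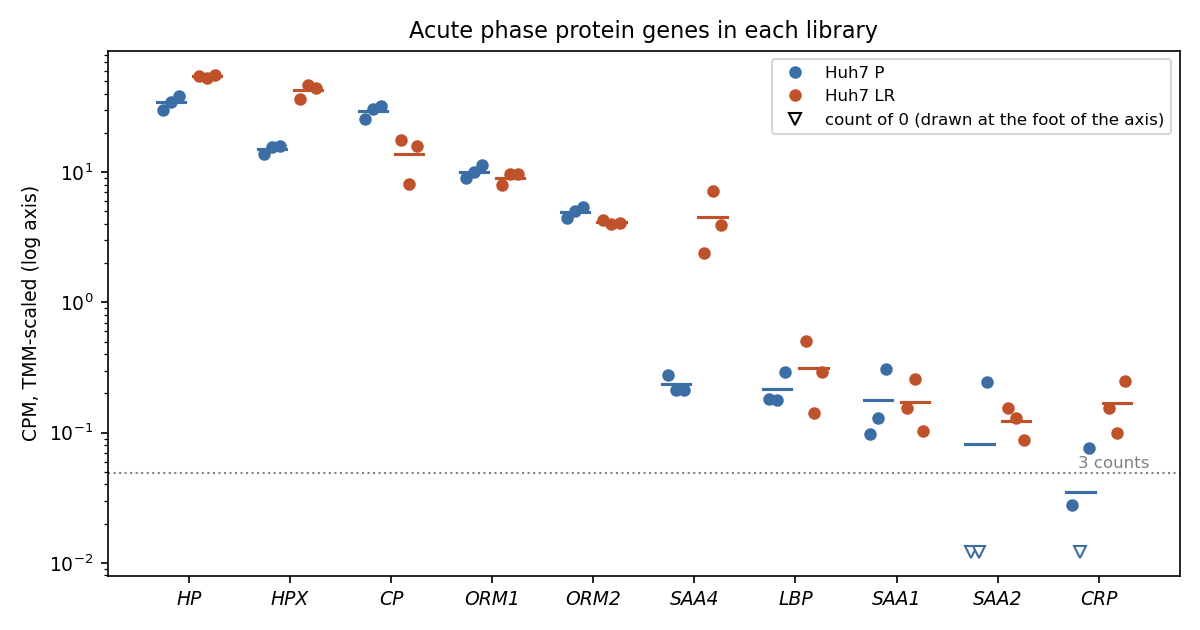
TMM-scaled CPM (log axis) of each acute phase protein gene in every library, with 3 Huh7 P libraries in blue and 3 Huh7 LR libraries in orange. Short horizontal lines are means, the dotted line is 3 counts in the shallowest library, and open triangles are counts of 0; the lines do not overlap for HP, HPX, CP, ORM2, SAA4 and CRP.

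The serum amyloid A genes encode small apolipoproteins of high density lipoprotein. SAA1 and SAA2 are the strongly inducible members, and SAA4 is the constitutive one of the family in liver. SAA4 was counted 20, 13 and 14 times in Huh7 P against 155, 500 and 270 times in Huh7 LR, or 0.279, 0.211 and 0.214 CPM against 2.38, 7.14 and 3.96 CPM. Every Huh7 LR library was above every Huh7 P library, and Huh7 LR 2 was the highest. SAA4 was 18.9-fold higher in Huh7 LR (log2 fold change 4.24, SE 0.40, adjusted p = 1.35e-05), and its change ranked 53 among the 17531 features. On the log2(FPKM + 1) scale of limma the difference was 2.29, since a pseudocount of 1 exceeds the level in Huh7 P. Leaving out each library in turn gave log2 fold changes from 3.75 to 4.55.

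SAA1 was counted 7, 8 and 20 times in Huh7 P against 10, 18 and 7 times in Huh7 LR, that is 0.0975, 0.130 and 0.306 CPM against 0.153, 0.257 and 0.103 CPM. The lines overlapped, and the log2 fold change was -0.05 (SE 0.60, adjusted p = 0.958), with a sign that depended on single libraries. It was 0.59 without Huh7 P 3 and -0.46 at the lowest of the leave-one-out values. The summed SAA1 counts were 35 in each line, a ratio of 0.999 with an exact 95% interval from 0.607 to 1.64. SAA2 was counted 0, 0 and 16 times in Huh7 P against 10, 9 and 6 times in Huh7 LR. The single Huh7 P library with counts (0.245 CPM) was above all 3 Huh7 LR libraries (0.153, 0.128 and 0.0879 CPM). Without a filter on low counts the log2 fold change of SAA2 was 0.59 (adjusted p = 0.752), and it was -0.012 without Huh7 P 1 and 0.037 without Huh7 P 2. The read-through gene SAA2-SAA4 had 0 counts in all 6 libraries.

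These genes are alike enough for short reads to be shared. Of the stretches of 50 bases in the SAA1 transcripts, 46.6% also occur in SAA2 transcripts, while SAA4 shares 63.4% of its own with SAA2-SAA4 and none with SAA1 or SAA2. How the counting treated reads that match several genes is not stated. Summed over SAA1, SAA2, SAA4 and SAA2-SAA4, the log2 fold change was 3.27 (SE 0.41, adjusted p = 8.16e-05), with leave-one-out values from 2.79 to 3.73. SAA1 took 100%, 100% and 55.6% of the SAA1 and SAA2 counts in Huh7 P against 50%, 66.7% and 53.8% in Huh7 LR. With so few counts the Wilson 95% interval was 64.6% to 100% in Huh7 P 1 and 29.1% to 76.8% in Huh7 LR 3. The difference of -28.3 percentage points in the means (85.2% ± 25.7 and 56.8% ± 8.73, SD, n = 3) gave p = 0.2 in a two-sided exact permutation test, which cannot fall under 0.1 with 3 samples against 3.

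CRP, the pentraxin measured in clinical chemistry, was barely detected. It was counted 2, 0 and 5 times in Huh7 P against 10, 7 and 17 times in Huh7 LR, or 0.0279, 0 and 0.0765 CPM against 0.153, 0.0999 and 0.249 CPM. All Huh7 LR libraries were above all Huh7 P libraries, but only Huh7 P 3 exceeded 3 counts in the parental line. The summed counts of 7 and 34 correspond to a ratio of 4.85 with an exact 95% interval from 2.12 to 12.97, which covers counting error only. The exact permutation test on CPM gave p = 0.1, the smallest value it can give. Without a filter the log2 fold change was 2.20 (SE 1.06, adjusted p = 0.129), and without Huh7 P 3 it was 3.34 (adjusted p = 0.0397). CRP thus differed beyond counting error but did not pass the test across all features except without that library. LBP, which hands bacterial lipopolysaccharide to CD14, was also low, counted 13, 11 and 19 times in Huh7 P against 33, 10 and 20 times in Huh7 LR. Its lines overlapped (log2 fold change 0.53, SE 0.52, adjusted p = 0.443), and without Huh7 LR 1 the log2 fold change was 0.01.

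HPX and HP encode the scavengers of haem and haemoglobin. HPX, which encodes hemopexin, had 13.8, 15.7 and 16.0 CPM in Huh7 P and 36.8, 46.4 and 44.6 CPM in Huh7 LR, from 970 to 1045 counts and from 2398 to 3248 counts per library. The 2 lines were well separated, with the lowest Huh7 LR library above the highest Huh7 P library by far more than the spread within either line. HPX was 2.81-fold higher in Huh7 LR (log2 fold change 1.49, SE 0.10, adjusted p = 1.74e-06), and its value ran from 1.41 to 1.59 over 16 alternative analyses.

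HP had 30.3, 34.8 and 38.2 CPM in Huh7 P and 54.9, 52.7 and 56.2 CPM in Huh7 LR, from at least 2149 counts in each library. The lines did not overlap, and the Huh7 LR libraries lay closer to each other than the Huh7 P libraries. HP was 1.59-fold higher in Huh7 LR (log2 fold change 0.67, SE 0.09, adjusted p = 1.31e-04). HPR, the haptoglobin-related protein gene, had 6.86, 6.71 and 7.005 CPM in Huh7 P and 9.45, 11.2 and 12.5 CPM in Huh7 LR, and its log2 fold change was 0.69 (SE 0.12, adjusted p = 9.75e-04). HP and HPR share sequence, with 27.2% of the 50-base stretches of HPR found in HP and 10.8% of those of HP found in HPR, so the split of reads between them is uncertain. Summed into a single row they gave a log2 fold change of 0.67 (SE 0.08, adjusted p = 7.75e-05), nearly that of each gene alone.

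The orosomucoids, or alpha-1-acid glycoproteins, are plasma proteins that bind basic drugs. ORM1 had 9.02, 10.0 and 11.3 CPM in Huh7 P and 7.95, 9.66 and 9.62 CPM in Huh7 LR. The lines overlapped, and the log2 fold change was -0.16 (SE 0.13, adjusted p = 0.344). ORM2 had 4.42, 5.01 and 5.38 CPM in Huh7 P and 4.27, 3.98 and 4.09 CPM in Huh7 LR. Its Huh7 LR libraries all lay below the Huh7 P libraries by a small margin, and the log2 fold change was -0.26 (SE 0.13, adjusted p = 0.134). The genes share 42.0% of the 50-base stretches of ORM1 and 50.2% of those of ORM2. Summed, they gave -0.19 (adjusted p = 0.172). ORM1 took 67.1%, 66.7% and 67.7% of their joint counts in Huh7 P against 65.1%, 70.8% and 70.2% in Huh7 LR, and the means of 67.2% ± 0.537 and 68.7% ± 3.14 (SD, n = 3) did not differ beyond the spread in a two-sided exact permutation test (p = 0.4, smallest possible value 0.1).

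CP was the only member called lower. It encodes ceruloplasmin, the copper-carrying ferroxidase of plasma. CP had 25.6, 30.5 and 32.1 CPM in Huh7 P and 17.6, 8.11 and 16.0 CPM in Huh7 LR, from 568 to 2101 counts per library. All Huh7 LR libraries were below all Huh7 P libraries, and Huh7 LR 2, which had the highest SAA4, had the lowest CP. CP was 2.12-fold lower in Huh7 LR (log2 fold change -1.08, SE 0.22, adjusted p = 0.00234). Its call was kept in each alternative, with log2 fold changes of CP between -1.29 and -0.80, and the adjusted p was highest, at 0.0463, with robust estimation. Without Huh7 LR 2 the log2 fold change was -0.80 (adjusted p = 3.64e-04). A stretch of 1418 exonic bases of CP, or 19.4% of its exon sequence, overlaps exons of HPS3 on the opposite strand. The library kit named in the labels does not mark strand, and if it was used, reads from that stretch cannot be told apart. The strand setting of the counting is not stated. HPS3 was itself lower (log2 fold change -0.59, adjusted p = 0.00223), and CP and HPS3 summed gave -0.73 (SE 0.14, adjusted p = 0.00143).

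Without regard to the test, the lines did not overlap for 6 of the 10 members, 4 higher in Huh7 LR (SAA4, HPX, HP and CRP) and 2 lower (CP and ORM2). CRP had too few counts to be tested, so of the 8 members tested 3 lay wholly higher and 2 wholly lower. Among the 17531 features tested, 28.2% lay wholly higher and 27.7% wholly lower in Huh7 LR.

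**Figure D3:**
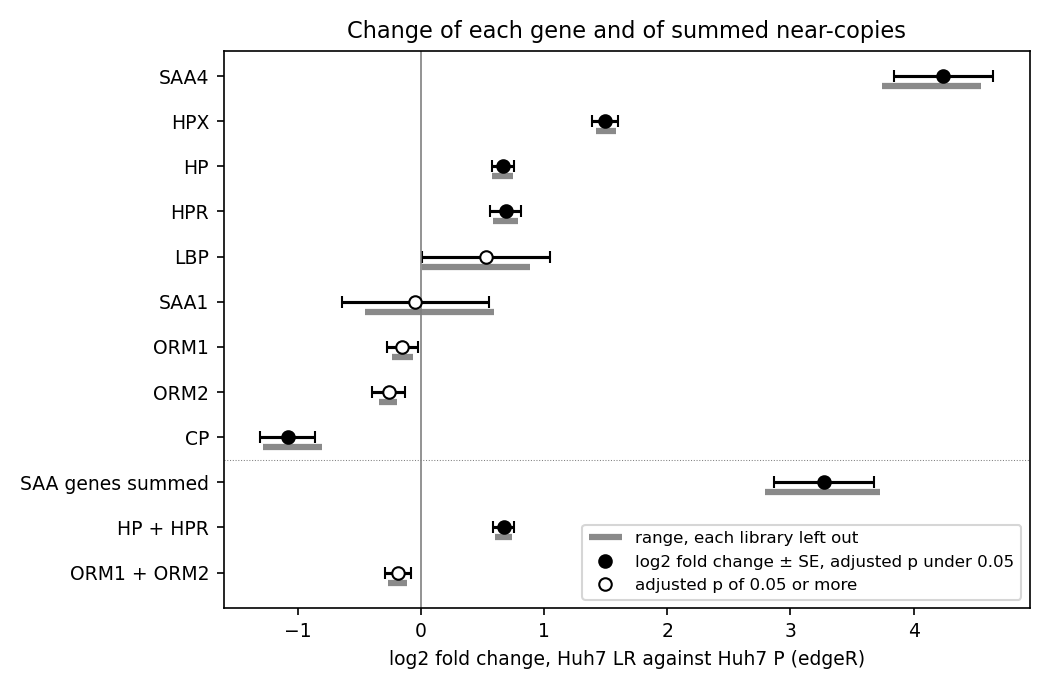
Log2 fold changes (Huh7 LR against Huh7 P, edgeR) of the 8 members tested and HPR, and of near-copies summed into 1 row below the dotted line. Bars are standard errors, filled points have an adjusted p under 0.05, and grey bars span the values with each library left out in turn; SAA4 is at 4.24, HPX at 1.49, HP at 0.67 and CP at -1.08, while the range of SAA1 crosses 0.

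The surroundings of the members on the chromosome were examined within 500 kb of each start. For comparison, 23.3% of all 17531 features tested were higher and 22.4% were lower. Around SAA4, 12 genes other than SAA1 were tested, and 1 was higher and 6 were lower, with a median log2 fold change of -0.19. The higher gene was TMEM86A (2.77), named after its value was seen, which starts 456.2 kb away. HPX had 15 neighbours tested, 6 higher and 3 lower (median 0.19). Within 100 kb of HPX, 6 were tested, and 5 were higher and 0 lower. None of these was lower at an unadjusted p under 0.05 in edgeR or with DESeq2. The same window held 2 tested neighbours of SAA4 (0 higher, 1 lower), 3 of HP (0 higher, 1 lower) and 1 of CP (lower). CP had 6 neighbours tested, 1 higher and 4 lower, with a median of -0.55. For HP, 4 of 12 neighbours other than HPR were higher and 3 lower (median -0.04), and for the ORM genes 4 of 9 were higher and 2 lower (median 0.16). Near CRP, 4 of 8 neighbours were higher and 0 lower (median 0.29). One of these is the related pentraxin gene APCS, named here after its values were seen, which was counted 2, 0 and 0 times in Huh7 P against 17, 61 and 24 times in Huh7 LR. The summed counts of 2 and 102 correspond to a ratio of 51.0 with an exact 95% interval from 13.8 to 426, which covers counting error only, and the adjusted p was 6.35e-04. LBP had 5 neighbours tested, 1 higher and 1 lower (median -0.07). Around CRP, the count of lower genes was also 0 at an unadjusted p under 0.05 and with DESeq2.

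**Figure D4:**
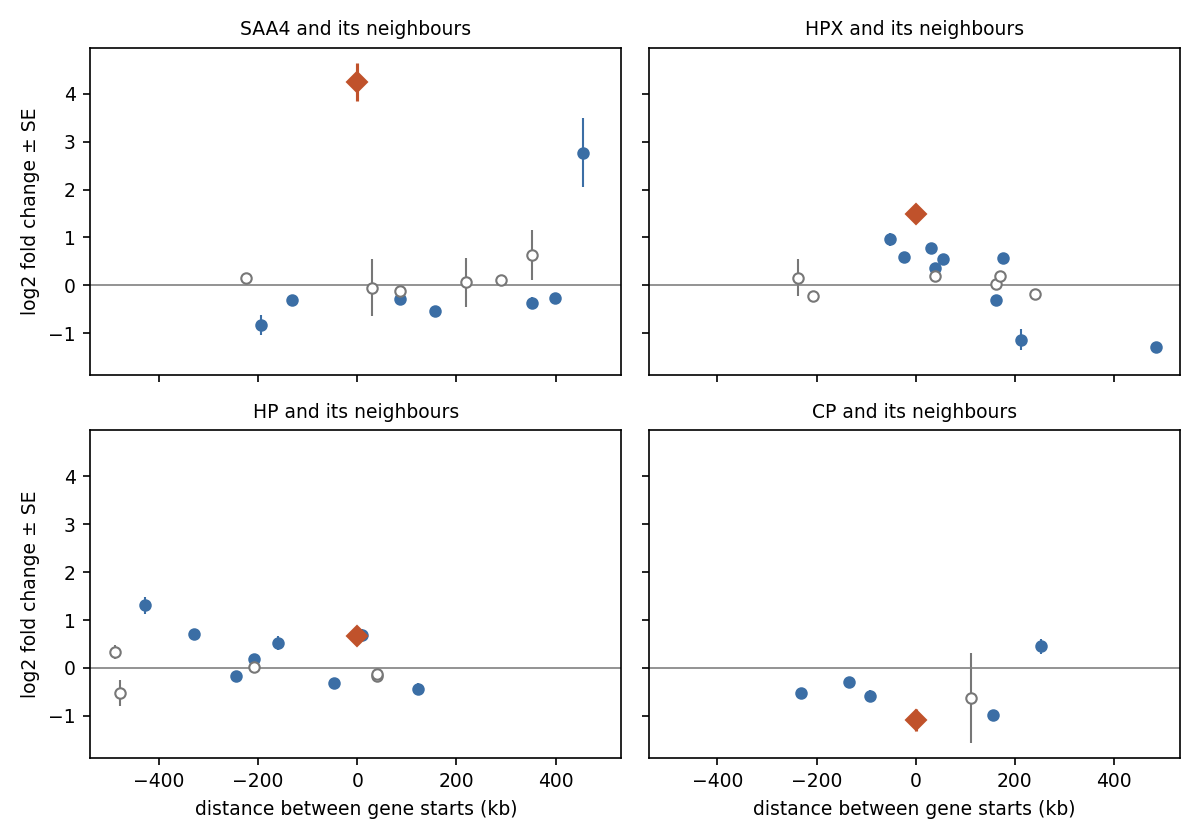
Log2 fold changes (Huh7 LR against Huh7 P, edgeR, bars are SE) of SAA4, HPX, HP and CP (orange diamonds at 0) and of the genes tested within 500 kb, against the distance between gene starts in kb. Filled blue points have an adjusted p under 0.05 and open points do not; the neighbours of SAA4 have a median of -0.19, whereas those of CP have a median of -0.55.

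The inputs of the response were followed through gene lists, whose counts stand beside 23.3% higher and 22.4% lower over all features tested. Of 11 acute phase cytokine genes, 4 were tested, and 1 was higher and 2 were lower. IL1B, a main inducer of the NF-kB branch, went from 0.480 to 1.44 CPM (log2 fold change 1.58, SE 0.26, adjusted p = 6.02e-04). LIF, a cytokine of the IL6 family, fell by 1.09 on the log2 scale (SE 0.21, adjusted p = 0.00161), and TGFB1 fell by 0.41 (adjusted p = 0.00474). IL6 and TNF did not have enough counts to be tested. Of 18 receptor genes, 14 were tested, of which 7 were higher and 0 lower (median log2 fold change 0.21). At an unadjusted p under 0.05 in edgeR 1 was lower (LIFR), and with DESeq2 0. With the replicate block in edgeR, LIFR was called lower (adjusted p = 0.0493). IL1R1, the signalling receptor of IL1, rose from 5.34 to 11.7 CPM (1.14, SE 0.14, adjusted p = 7.30e-05), and its accessory chain IL1RAP rose by a log2 fold change of 0.91 (SE 0.09, adjusted p = 2.04e-05). IL11RA rose by 1.16 and IL10RB by 0.51. The IL6 receptor gene IL6R rose by 0.36 (SE 0.07, adjusted p = 0.00248), and NR3C1, the glucocorticoid receptor, by 0.46 (adjusted p = 0.00401). The log2 fold changes of IL6ST (0.12, adjusted p = 0.329), OSMR (0.17, adjusted p = 0.0526), LIFR (-0.22, adjusted p = 0.0907) and TNFRSF1A (0.05, adjusted p = 0.566) did not pass.

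Among 38 genes of signalling and transcription factors, all tested, 14 were higher and 6 lower (median 0.11). STAT3 rose from 90.3 to 168 CPM (log2 fold change 0.89, SE 0.07, adjusted p = 2.89e-06). CEBPD rose by 0.98 (SE 0.11, adjusted p = 3.20e-05), CEBPA by 0.58 (adjusted p = 5.55e-05) and RELB, a partner of NFKB2, by 0.79 (adjusted p = 0.0117). SOCS1, a feedback inhibitor of cytokine receptors, fell by 1.28 (SE 0.41, adjusted p = 0.0249) from 1.04 to 0.427 CPM, and SOCS3, the feedback inhibitor of IL6ST, rose by 0.54 (adjusted p = 0.0357). Calls of SOCS1, SOCS3, NFKB1 (-0.24, adjusted p = 0.0283) and RELA (0.20, adjusted p = 0.0298) were lost without single libraries. FOXA2 rose by 0.31 (adjusted p = 0.0104). The log2 fold change of the hepatocyte factor HNF4A (-0.06, adjusted p = 0.608) did not pass, nor did those of CEBPB (0.25, adjusted p = 0.170), JAK1 (-0.14, adjusted p = 0.121) and JAK2 (0.06, adjusted p = 0.793). The signs for HNF4A and JAK2 turned under some alternatives.

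Of 18 listed STAT3 target genes, 16 were tested, and 8 were higher and 2 lower (median 0.25). FGL1, a hepatokine of the fibrinogen family, rose by 1.53 (SE 0.17, adjusted p = 3.79e-05) and the kinase gene PIM1 by 1.06 (adjusted p = 2.76e-05). Of 20 NF-kB target genes, 19 were tested, and 11 were higher and 2 lower (median 0.58). The chemokine gene CXCL1 rose by 1.59 (SE 0.23, adjusted p = 2.44e-04), and the feedback genes TNFAIP3 (1.14) and TRAF1 (1.09) rose as well, whereas IER3 fell by 1.17 (SE 0.13, adjusted p = 3.54e-05). These lists overlap in part with each other and with the lists of signalling and acute phase genes.

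Other positive acute phase genes moved in both directions. Of 30 listed, 25 were tested, and 12 were higher and 4 lower (median 0.91). FGA rose from 111 ± 8.83 to 1237 ± 199 CPM (SD, n = 3), and its log2 fold change was 3.48 (SE 0.12, adjusted p = 2.65e-08), while FGB and FGG, the other fibrinogen chains, rose by 2.49 and 2.42. The complement protease gene C1S rose by 2.16. SERPINA3 and LRG1, named here after their values were seen, fell by 1.07 (SE 0.17, adjusted p = 4.83e-04) and 0.90 (SE 0.14, adjusted p = 3.80e-04). Of 12 negative acute phase genes, 10 were tested, and 9 were higher and 0 lower (median 0.71), with 1 lower at an unadjusted p under 0.05 in edgeR and 0 with DESeq2. AHSG, which encodes fetuin A, rose by 1.73 (SE 0.09, adjusted p = 2.93e-07), F12 by 1.56 and GC, the vitamin D carrier, by 1.02. ALB rose by 0.74 (SE 0.08, adjusted p = 4.68e-05), from 12951 to 21566 CPM. HP (0.67) and ALB (0.74) thus had log2 fold changes of like size although they belong to lists of opposite direction in the response.

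**Figure D5:**
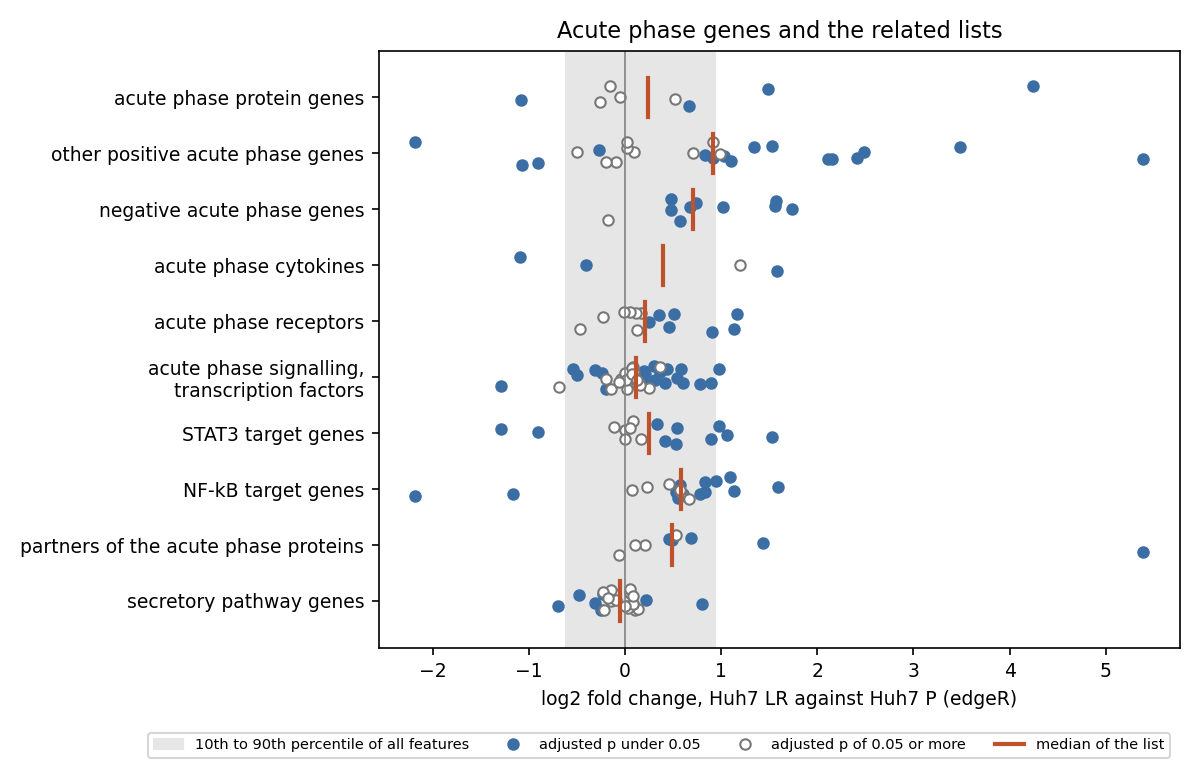
Log2 fold changes (Huh7 LR against Huh7 P, edgeR) of the tested genes of each list, with the 8 members tested in the top row. Filled blue points have an adjusted p under 0.05, open points do not, orange bars are list medians, and the grey band spans the 10th to 90th percentile of all features (-0.61 to 0.93); the medians are 0.24 for the acute phase protein genes, 0.71 for the negative acute phase genes and -0.05 for the secretory pathway genes, and vertical jitter within a row has no meaning.

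The partners of the members were related genes (HPR, APCS and SAA2-SAA4), genes of receptors and lipopolysaccharide binding, and genes of haem and iron handling. Of 16 listed, 9 were tested, and 5 were higher and 0 lower (median 0.49), and none was lower at an unadjusted p under 0.05 in edgeR or with DESeq2. HMOX1, the haem oxygenase that degrades the haem HPX delivers, rose from 23.5 to 63.5 CPM (log2 fold change 1.44, SE 0.16, adjusted p = 3.23e-05). LRP1, the endocytic receptor of haem-hemopexin complexes, rose by 0.46 (adjusted p = 0.00261), and SLC40A1, the iron exporter ferroportin that works with ceruloplasmin, by 0.49 (adjusted p = 5.61e-04). CD163, the macrophage receptor of haptoglobin complexes, did not have enough counts to be tested. The 24 genes of the secretory pathway, through which the members leave the cell, gave 2 higher and 5 lower (median -0.05). KDELR2 rose by 0.80 (SE 0.06, adjusted p = 4.07e-06), while the chaperone genes HSP90B1 and CANX fell by 0.69 (SE 0.07, adjusted p = 2.49e-05) and 0.48 (adjusted p = 1.72e-04). HSPA5 (-0.31, adjusted p = 0.0445) lost its call in 8 of 16 alternatives.

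In the 6 libraries, the patterns nearest to HP by Euclidean distance of centred log2 CPM, among 12515 genes of at least 1 CPM in a line, were those of STK39 (0.0994), SELENOP (0.104) and GUCY2C (0.112). Those nearest to SAA1 were AC023055.1 (0.339), PCDHGA1 (0.608) and C19orf18 (0.672). SAA1 had only 7 to 20 counts per library, so its pattern holds much counting error. CRP was not compared, having too few counts.

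Markers of hepatocytes were abundant in both lines, with summed levels of 43498 to 52591 CPM in Huh7 P and 54989 to 58034 CPM in Huh7 LR, and 4 of 8 were higher and 0 lower (1 at an unadjusted p under 0.05 in edgeR, 0 with DESeq2). Leukocyte and Kupffer cell markers summed to 128 to 138 CPM in Huh7 P and 53.9 to 60.5 CPM in Huh7 LR, mostly CD68 and LYZ, and of 8 listed 3 were tested, of which 1 was higher and 2 were lower, with HLA-DRA and TYROBP at 0 counts. Stellate cell and fibroblast markers summed to 5.72 to 7.92 and 7.58 to 11.8 CPM (4 of 7 tested, 2 higher and 1 lower, DCN at 0). Endothelial markers summed to 39.1 to 47.7 and 65.3 to 71.4 CPM, mostly PECAM1 (3 of 6 tested, 2 higher and 0 lower, with 0 lower also at an unadjusted p under 0.05 in edgeR and with DESeq2, and CDH5, KDR and LYVE1 at 0). Cholangiocyte markers summed to 475 to 500 and 520 to 530 CPM (5 of 6 tested, 3 higher and 1 lower). The samples are cultures of a cell line and its derivative, so these markers are read as genes of these cells and not as shares of other cell types. The part of these markers in the changes of the members was not tested. In bulk RNA, fewer cells with a transcript and less of it per cell cannot be told apart. No library stood apart, as the SD of log2 differences was 0.472 to 0.548 within a line and 0.853 to 0.881 between the lines.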

How the data were processed

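RNA of Huh7 P and Huh7 LR, with 3 samples each, was poly(A)-selected and made into NEBNext Ultra libraries, per the labels. The authors deposited for each gene the read count, without normalization, and an FPKM value, which is scaled for transcript length and library size. The submitters' processing notes name TopHat2, Cufflinks, DESeq and mm10, a mouse build, although the identifiers are human, and the extraction text names an insect. The build of the annotation, the strand setting and the treatment of reads with several matches are not given in the sources used here.

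The counts were tested by the quasi-likelihood method of edgeR 4.0.16 (R 4.3.3), with filterByExpr (minimum count 10, minimum total 15) and TMM factors between 0.977 and 1.03. P-values were adjusted by the Benjamini-Hochberg method over all 17531 features. SE is the log2 fold change divided by the square root of F. A difference required an adjusted p under 0.05, and the stricter level was an adjusted p under 0.001 with an absolute log2 fold change over 1. The table's 34 further rows of text hold no counts. Alternatives were DESeq2 1.42.0, other scalings and filters, a replicate block, limma 3.58.1 on log2(FPKM + 0.1) and log2(FPKM + 1), near-copies summed, and each library left out. Exact tests used scipy 1.17.1, and figures matplotlib 3.10.9. The scripts were tested on simulated data.

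The members and lists were chosen with earlier results of these data known. Genes named are the members, SAA2-SAA4, HPR, 20 set receptors and factors (of which 1 is not reported here), the genes nearest in pattern to HP and SAA1 (CRP had too few counts), and from each other list up to 4 called genes of largest change with at least 1 CPM in a line. Summing CP with HPS3, and taking the more abundant of the 2 SOD2 identifiers, were chosen after seeing the data.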

Additional observations from a re-analysis of the deposited data

How the results depend on the processing

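Over 16 alternatives the calls of SAA4, HPX, HP and CP were kept, as were those of the summed SAA genes and of HP with HPR. SAA4 ran from 2.29 (log2(FPKM + 1)) to 4.55, and the summed SAA genes from 2.07 on the same scale to 3.73. The number of members higher at an adjusted p under 0.05 was 3 to 4 with each library left out (4 without Huh7 P 3, when CRP passed), and the number lower was 1. At the stricter level 2 members were higher in each alternative, and the number lower was 0 to 1 with each library left out, 1 without Huh7 LR 1, and 1 also with no filter and with the replicate block, each time CP. The leave-one-out ranges of log2 fold changes were 2.79 to 3.73 for the summed SAA genes, 0.60 to 0.74 for HP with HPR and -0.27 to -0.11 for ORM1 with ORM2. The share of SAA1 differed by -43.2 to -20.9 percentage points and that of ORM1 by 0.445 to 3.32.

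Replicate numbers were not taken to pair the samples, since the deviations of same-numbered libraries correlated at 0.0290, 0.0314 and 0.0317, although each library correlated best with its own number. With the replicate block, features called at an adjusted p under 0.05 went from 8016 to 8122, 1 receptor gene (LIFR, -0.23, adjusted p = 0.0493) was called lower in place of 0. SAA1 then had a log2 fold change of 0.0048. Its sign also turned without Huh7 P 3 (0.59), Huh7 LR 1 (0.024) and Huh7 LR 3 (0.21), in a leave-one-out range of -0.46 to 0.59. The sign turned for HNF4A without Huh7 LR 1 (0.024, range from -0.11) and on both FPKM scales (0.37), and for JAK2 without Huh7 LR 1 (-0.016) and Huh7 LR 3 (-0.034, range to 0.22). The cause of these turns was not tested. Among named genes, CEBPB, IL6ST and OSMR crossed into the calls and HSPA5, NFKB1, RELA, SOCS1 and SOCS3 out of them in some alternatives. The depth limits CRP, SAA1, SAA2 and LBP, whose libraries held 33 counts at most.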
